A study of Mus musculus with 2 samples.

Results

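Adenosine pathway genes were 6 of the 32285 genes counted in 2 single-cell libraries of mouse MC38 tumors, and were taken by symbol from the gene list of the count matrices: Entpd1, Nt5e, Adora2a, Adora2b, Ada and Adk. All 6 had UMIs (unique molecular identifiers, each 1 captured RNA molecule) in both libraries. The untreated library came from tumors that the labels call untreated, that the series design describes as injected with saline containing 10% DMSO, and that the methods call saline-treated. The MSA-2 library came from tumors injected with MSA-2, a small-molecule agonist of the DNA-sensing adaptor STING. Both groups are recorded with 3 doses, given every 3 days. MC38 is a single mouse colon carcinoma line, here grown under the skin of mice. The series design states that 3 mice or samples were pooled, which leaves 1 library per condition, and the methods state that cells were sorted without naming a gate. With 1 library per condition no difference between conditions has a replicate check, no test could be made. Every interval below is a 95% interval that covers counting error only.

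Extracellular ATP released by stressed or dying cells is cut to AMP by the ectoenzyme CD39 (Entpd1) and then to adenosine by the ectoenzyme CD73 (Nt5e). Adenosine acts on the receptors encoded by Adora2a and Adora2b, which couple to Gs, raise cAMP and restrain T cells and myeloid cells, and is removed by deamination through adenosine deaminase (Ada) or by phosphorylation through adenosine kinase (Adk). In tumors the pathway is studied as a source of immune suppression, and Nt5e and Adora2b are also known as genes that respond to low oxygen.

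On GRCm38 (GENCODE M21), Entpd1 (ENSMUSG00000048120) lay at chr19:40612366-40741602 and Nt5e (ENSMUSG00000032420) at chr9:88327197-88372092, both on the plus strand. Adora2a (ENSMUSG00000020178) lay at chr10:75316877-75334784, Adora2b (ENSMUSG00000018500) at chr11:62248984-62266453 and Adk (ENSMUSG00000039197) at chr14:21052574-21448569 on the plus strand, and Ada (ENSMUSG00000017697) at chr2:163726584-163750239 on the minus strand. Entpd1 shared its strand and span with the counted gene AC166063.1, and no other member overlapped a counted gene. Promoter windows of 250 bases before to 50 after a start were taken from RefSeq (GRCm38.p6) for Entpd1, Nt5e, Adora2b, Ada and Adk, 5 of the 6 members. The windows of Nt5e (chr9:88327359-88327658) and Adora2b (chr11:62248734-62249033) are printed 5′ to 3′ because over all kept cells these members lay furthest to either side in the comparison of the libraries. Capitals mark the core of the hypoxia response element, ACGTG or GCGTG, read on both strands.
Nt5e: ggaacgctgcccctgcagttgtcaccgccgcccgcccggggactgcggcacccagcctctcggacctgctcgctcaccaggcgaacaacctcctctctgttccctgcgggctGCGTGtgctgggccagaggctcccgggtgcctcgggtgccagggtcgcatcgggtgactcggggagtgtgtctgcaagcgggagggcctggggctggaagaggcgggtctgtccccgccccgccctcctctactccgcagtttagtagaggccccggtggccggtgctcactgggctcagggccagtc
Adora2b: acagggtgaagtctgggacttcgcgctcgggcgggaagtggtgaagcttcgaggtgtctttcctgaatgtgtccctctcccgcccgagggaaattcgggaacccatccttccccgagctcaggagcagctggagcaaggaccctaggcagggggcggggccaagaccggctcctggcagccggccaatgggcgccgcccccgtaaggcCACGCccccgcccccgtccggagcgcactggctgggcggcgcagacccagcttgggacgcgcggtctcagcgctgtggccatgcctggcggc
Each of these windows held 1 such core, and 43.8% of all 32851 promoter windows of the same length held at least 1. Neither held the full cAMP response element TGACGTCA, found on either strand in 1.79% of all windows. A match of letters in a window is a description and no evidence of binding.

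The untreated library held 14386 barcodes with 198135335 UMIs and the MSA-2 library 14617 barcodes with 204387165 UMIs. The methods give the same barcode numbers and call them immune cells left after quality filtering, which the largest class below does not bear out. After filters on genes per cell and mitochondrial UMIs and removal of called doublets, 13334 and 13393 cells remained, and the libraries shared 53 of all barcodes and 39 of those kept. Cells were put into classes by fixed numbers of marker UMIs per cell, and "-like" marks such a class. The largest class, here called marker-negative, passed no gate, had at least 5000 UMIs a cell and little Ptprc, the pan-leukocyte gene, and held 6176 untreated and 6706 MSA-2 cells. The epithelial markers expected of a carcinoma line were nearly absent in it: Krt18 had 1 and 2 UMIs and Epcam 26 and 3, while Krt14 had 3515 and 1241, so that these cells are called by their gate and not tumor cells. The composition of the libraries differed in ways that touch every result over all cells, with neutrophil-like cells at 0.240% of untreated and 19.7% of MSA-2 cells, macrophage-like cells at 28.5% and 9.83%, and T- and NK-like cells at 11.2% and 1.93%. Levels are in CPM, the UMIs of a gene per 1000000 UMIs of its class. They compare the same gene between classes and libraries and not one gene with another.

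Over all kept cells Nt5e was lower in the MSA-2 library, Adora2b was higher, and the other members lay between. Nt5e had 1290 UMIs (7.04 CPM) in the untreated library and 259 (1.35 CPM) in the MSA-2 library, a log2 ratio of -2.38 (interval -2.58 to -2.19). Adora2b had 1514 UMIs (8.26 CPM) and 3141 (16.4 CPM), a log2 ratio of 0.99 (0.90 to 1.08). Nt5e alone of the 6 members was past a fold of 2, in the lower direction, beside 8.36% of the 19509 genes with at least 20 UMIs in that direction and 11.2% in the higher one. With equal weight per cell Entpd1, at a log2 ratio of 1.41, was past it too, and Adora2b (8.25 and 16.6 CPM) was when neutrophil-like cells were left out. Adora2a had a log2 ratio of -0.88 (-1.10 to -0.67), Ada of -0.45 (-0.55 to -0.35), Entpd1 of 0.32 (0.26 to 0.37) and Adk of 0.04 (-0.00 to 0.08).

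The class proportions of the libraries were then set apart from the levels within classes. With every class kept at its untreated level per UMI and only the class proportions of the MSA-2 library applied, the calculated log2 ratio was -0.96 for Adora2a, -0.55 for Nt5e, 0.33 for Entpd1, 0.07 for Adora2b, 0.06 for Adk and 0.02 for Ada. The remainder, which is the difference in level within classes, was -1.83 for Nt5e, 0.92 for Adora2b and -0.47 for Ada, and -0.02, -0.01 and 0.08 for Adk, Entpd1 and Adora2a. A remainder near 0 sums over classes and does not show that levels within classes were alike, and for Adora2a the log2 ratio was -1.45 in CD8 T-like and 0.53 in macrophage-like cells. This calculation was chosen after the values had been seen, and no interval was calculated for it. Its untreated neutrophil-like level rests on 32 cells, with 34 Entpd1 UMIs (529 to 1068 CPM) and 2 Nt5e UMIs (5.45 to 162 CPM). The Entpd1 and Nt5e values, and their remainders, therefore depend on few UMIs.

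**Figure D1:**
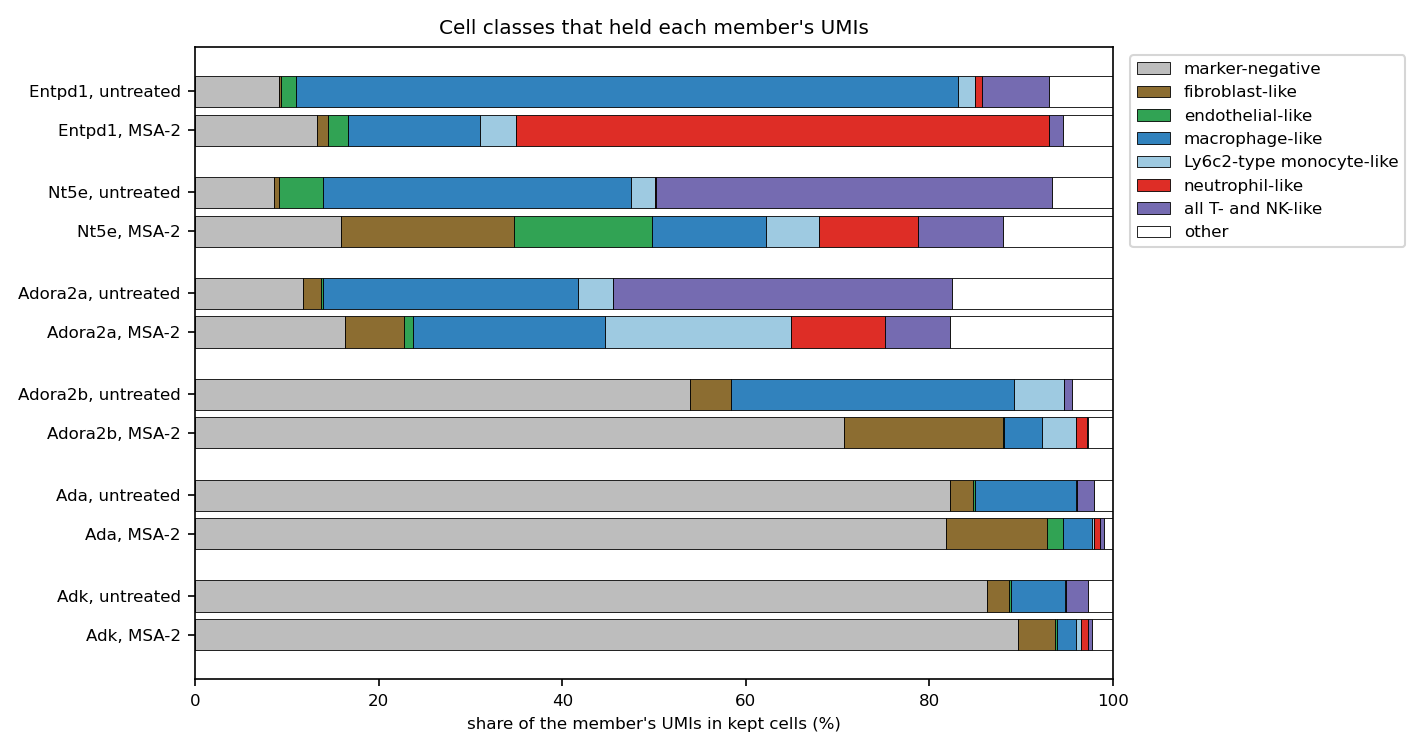
Share of each member's UMIs (x axis, percent) held by each cell class, with 1 bar per member and library. Macrophage-like cells held 72.2% of the Entpd1 UMIs of the untreated library and neutrophil-like cells 58.1% of those of the MSA-2 library, while marker-negative cells held more than any other class of Adora2b, Ada and Adk in both.

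Entpd1, the first enzyme of the pathway, was found in neutrophil-, macrophage-, monocyte- and endothelial-like cells of both libraries, and also in CD8 T-like cells. Its level was highest in neutrophil-like cells, at 764 CPM (34 UMIs in 32 cells) in the untreated library and 670 CPM (3671 UMIs in 2642 cells) in the MSA-2 library. It was 159 and 140 CPM in macrophage-like cells and 136 and 138 CPM in endothelial-like cells. Monocyte-like cells gated on Ly6c2 and related markers had 113 and 127 CPM. Within each of these classes the libraries differed by less than a fold of 1.5. The log2 ratio was -0.18 in macrophage-like cells (-0.29 to -0.08), 0.03 in endothelial-like cells (-0.38 to 0.44), 0.17 in monocyte-like cells (-0.18 to 0.53) and -0.19 in neutrophil-like cells (-0.68 to 0.34). In neutrophil-like cells their own 12 markers (1 at 0 in the untreated library) summed to 30801 and 96305 CPM. The 10 macrophage markers (2 at 0 in the untreated library) summed to 1506 and 371 CPM there, and the part of either in this ratio was not tested. In the untreated library the level in cDC1-like cells (187 CPM, 119 UMIs in 67 cells) overlapped that of macrophage-like cells in its interval, and endothelial-like cells overlapped both macrophage- and monocyte-like cells. No Entpd1 UMI (0) was found in the 4 cDC1-like MSA-2 cells, 3 of which lay within 1.5 times the cutoff of their gate against 6 of the 67 untreated ones, and this is not read as a difference. The intervals of macrophage- and monocyte-like cells were apart in the untreated library and overlapped in the MSA-2 library.

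The shares of Entpd1 UMIs held by the classes differed between the libraries. Macrophage-like cells held 72.2% of its UMIs in the untreated library (70.9% to 73.4%) and 14.4% in the MSA-2 library (13.5% to 15.3%). Neutrophil-like cells held 0.701% and 58.1% (56.9% to 59.3%). These depended on the cell filter. With a minimum of 1000 genes and a limit of 10% on mitochondrial UMIs, which kept 311 of the 2642 neutrophil-like MSA-2 cells, neutrophil-like cells held 21.6% and macrophage-like cells 27.8% of the MSA-2 UMIs, and the log2 ratio over all kept cells was -0.60. Leaving neutrophil-like cells out, the log2 ratio over the remaining cells was -0.89 (-0.96 to -0.82) in place of 0.32, with 4813 and 2648 UMIs. After each cell was thinned to 1000 UMIs, 45.3% of 2589 neutrophil-like MSA-2 cells had an Entpd1 UMI, against 13.5% of 1292 macrophage-like MSA-2 cells and 0.418% of 6706 marker-negative ones. Before thinning, 62.8% and 38.4% of those neutrophil- and macrophage-like cells had a UMI, at median depths of 1820.5 and 4466.5 UMIs.

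Among lymphoid cells CD8 T-like cells had Entpd1 at 84.5 CPM (257 UMIs in 740 untreated cells) and 112 CPM (58 UMIs in 92 MSA-2 cells), and untreated Treg-like cells had 98.2 CPM, beside 50.7 CPM in untreated cDC2-like and 17.5 CPM in mregDC-like cells. In the MSA-2 cells the interval of the CD8 T-like class (85.3 to 145 CPM) overlapped those of macrophage-, monocyte- and endothelial-like cells. It was low in untreated CD4 T-like cells that had no Foxp3 UMI, at 15.9 CPM from 5 UMIs. In NK-like cells it had 14 untreated UMIs (14.9 CPM) and 24 MSA-2 UMIs (44.1 CPM), a log2 ratio of 1.56 (0.56 to 2.63). Neutrophil marker RNA in NK-like cells was also higher in the MSA-2 library, with a summed level of 12.8 against 485 CPM for the 12 markers (6 and 3 of them at 0).

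Free RNA of other cells enters droplets, and its markers show how much. In each library the Entpd1 level that marker RNA of other classes would bring into a class was calculated from the ratio of Entpd1 to markers in the source class. The sources were macrophage-, neutrophil-, T- and NK-, fibroblast- and endothelial-like cells. Marker-negative cells have no markers of their own, so free RNA from them is left out of all carried levels, here and below. The carried Entpd1 level came to 3.66 and 4.91 CPM in marker-negative cells, which had 3.03 (untreated) and 5.19 CPM (MSA-2). It came to 6.49 and 6.42 CPM in fibroblast-like cells, which had 3.52 and 7.60 CPM. The Entpd1 of these classes, with log2 ratios of 0.78 (0.61 to 0.95) and 1.11 (0.15 to 2.22), was therefore at or near the level that free RNA can reach and is not read as expression. In NK-like cells it came to 5.09 and 7.15 CPM, below the 14.9 and 44.1 CPM found. Monocyte-like cells would be brought 29.5 and 26.2 CPM, of which 16.4 and 15.1 CPM by neutrophil markers, a part of the 113 and 127 CPM found there.

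**Figure D2:**
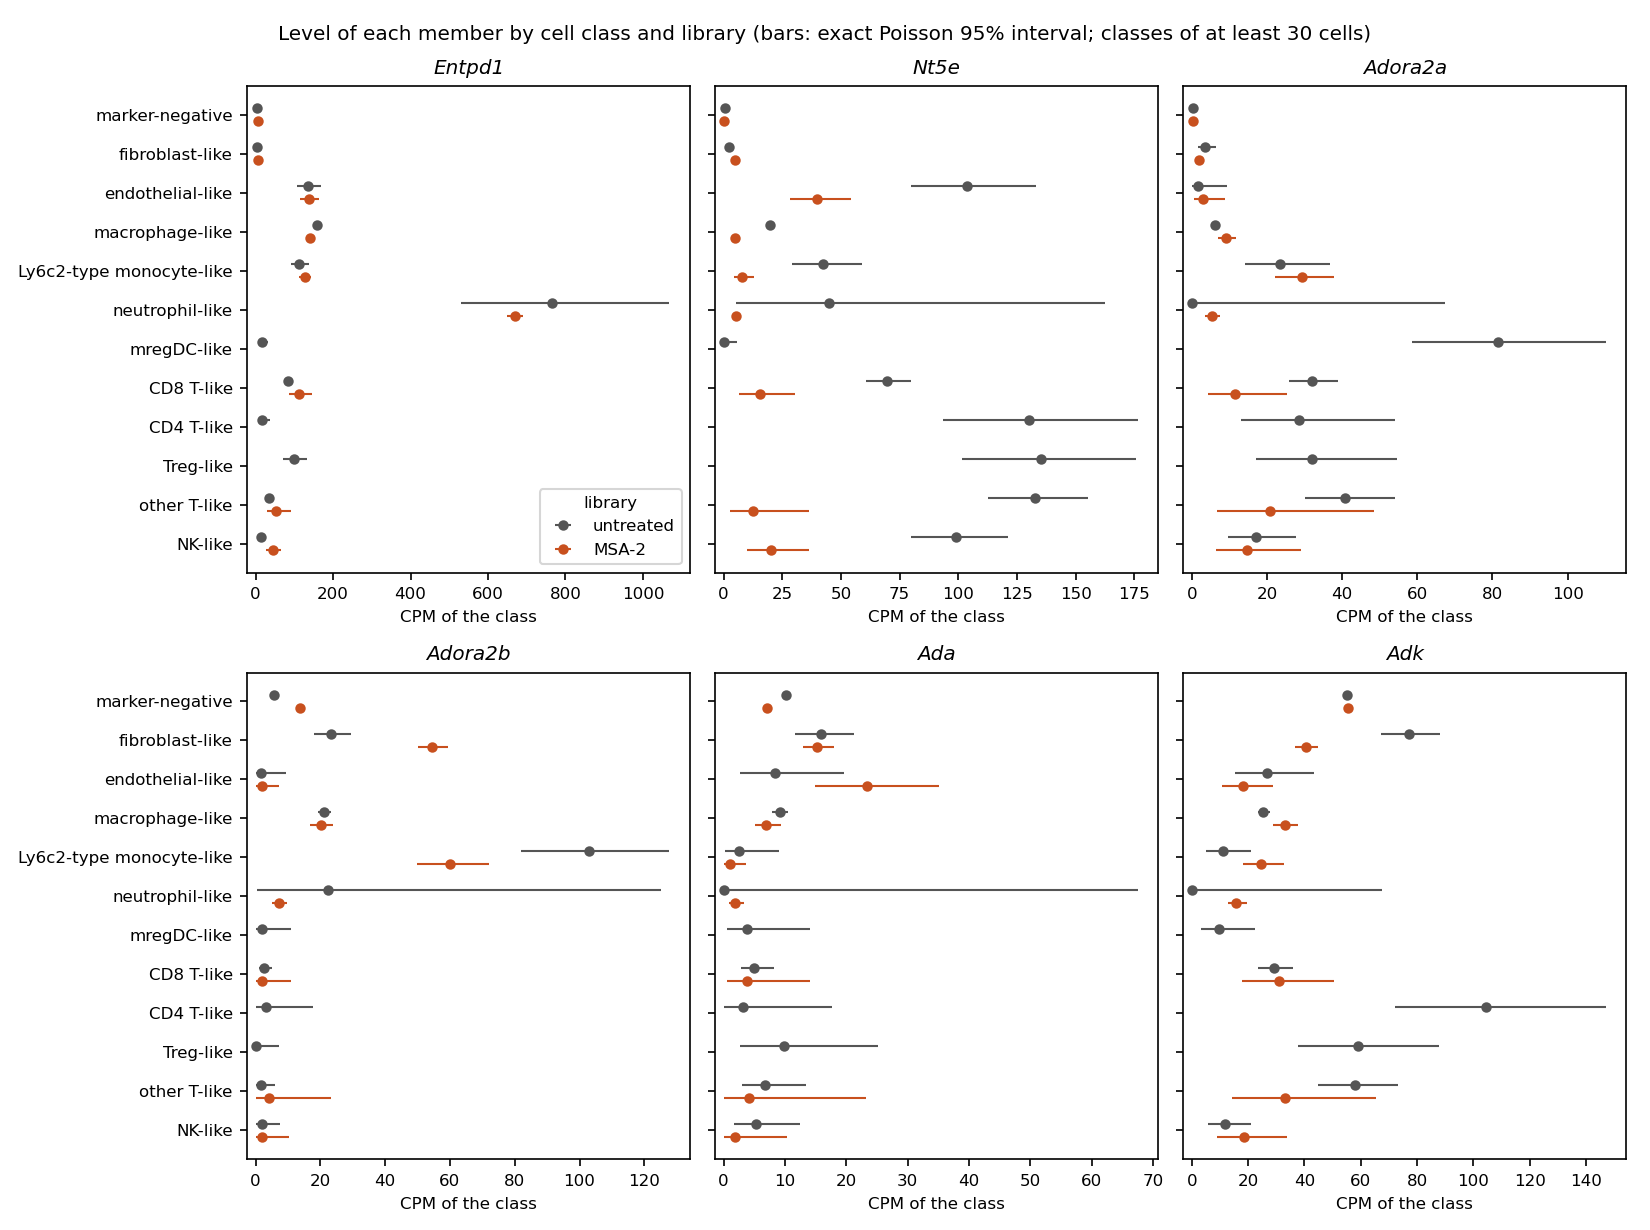
Level of each member (x axis, CPM of the class, linear) in 12 cell classes (y axis), with untreated in grey and MSA-2 in orange. Points are the summed level of 1 library and lines its exact Poisson 95% interval, and classes of fewer than 30 cells in a library are not drawn.

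Nt5e, which makes adenosine from AMP, was in lymphoid and endothelial cells and at a lower level in myeloid cells, and its level was lower in the MSA-2 library in all T- and NK-like cells together and in endothelial-, macrophage- and monocyte-like cells. In all T- and NK-like cells together it had 557 UMIs in 1490 untreated cells (94.7 CPM, 87.0 to 103) and 24 UMIs in 259 MSA-2 cells (17.4 CPM, 11.2 to 25.9), a log2 ratio of -2.44 (-3.10 to -1.86). The intervals of the 2 libraries were far apart. In this class the 8 T-cell markers (none at 0) summed to 4059 and 2210 CPM, the 10 macrophage markers (none at 0) to 1009 and 236 CPM and the 12 neutrophil markers (2 and 1 at 0) to 44.4 and 479 CPM, and NK-like cells were 165 of the 1490 and 82 of the 259 cells. Other classes' marker RNA carried 1.16 and 0.707 CPM of Nt5e into it, and any other part of these markers was not tested. CD8 T-like cells had 69.7 and 15.5 CPM (212 and 8 UMIs, log2 ratio -2.17, -3.40 to -1.16) and NK-like cells 99.1 and 20.2 CPM (93 and 11 UMIs, log2 ratio -2.29, -3.34 to -1.39). In the untreated library Treg-like (135 CPM), other T-like (133 CPM) and CD4 T-like cells (130 CPM) had the highest levels and overlapped each other, as did NK-like (99.1 CPM) and endothelial-like cells (104 CPM), while the interval of CD8 T-like cells (60.6 to 79.7 CPM) lay below all of these but for a marginal overlap with endothelial-like cells (79.7 to 133 CPM). In the MSA-2 library the CD4 T-like and Treg-like classes held 12 and 8 cells with 1 Nt5e UMI each.

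Endothelial-like cells had 62 UMIs in 61 untreated cells (104 CPM) and 39 in 78 MSA-2 cells (39.6 CPM, 28.2 to 54.2), a log2 ratio of -1.39 (-2.01 to -0.79). Their own 10 markers (none at 0) summed to 8825 and 6088 CPM, the 10 macrophage markers (1 at 0 in the untreated library) to 811 and 208 CPM, the 9 fibroblast markers (1 at 0 in the MSA-2 library) to 446 and 781 CPM and the 12 neutrophil markers (8 at 0 in the untreated library) to 25.1 and 577 CPM. Other classes' marker RNA carried 0.882 and 0.165 CPM of Nt5e into endothelial-like cells, less than the levels found. It carried 0.259 and 0.224 CPM of Ada, also less, but without free RNA of marker-negative cells, which held most Ada UMIs. Any other part of these markers in the values of this class here and below was not tested. Among MSA-2 classes of at least 50 cells the endothelial-like Nt5e level was the highest. Its interval overlapped those of NK-like (10.1 to 36.2 CPM), CD8 T-like (6.69 to 30.5 CPM) and other T-like cells (2.57 to 36.4 CPM). Macrophage-like cells had 433 UMIs in 3804 untreated cells (19.7 CPM) and 32 in 1316 MSA-2 cells (4.94 CPM), a log2 ratio of -2.00 (-2.56 to -1.48). Their own 10 markers (none at 0) summed to 40320 and 28261 CPM, the 9 monocyte markers (none at 0) to 1196 and 2713 CPM and the 12 neutrophil markers (1 at 0 in the untreated library) to 177 and 1003 CPM, and the part of the macrophage and monocyte markers in the values of this class was not tested. Monocyte-like cells had 34 UMIs (42.2 CPM) and 15 UMIs (7.71 CPM), a log2 ratio of -2.45 (-3.43 to -1.54). Other markers of this class also differed between the libraries, with a sum of 1366 and 988 CPM over the 9 macrophage markers used in the gate (6882 and 2136 CPM with Apoe, which marker-negative cells also hold, and none at 0) and of 658 and 2171 CPM over the 12 neutrophil markers (5 at 0 in the untreated library). Macrophage and neutrophil marker RNA carried 1.49 and 0.963 CPM of Nt5e into the untreated and 0.353 and 0.115 CPM into the MSA-2 monocyte-like cells. These sources together carried 0.705 and 0.850 CPM of Adora2a, 2.19 and 2.18 CPM of Adora2b and 2.56 and 3.32 CPM of Adk into monocyte-like cells, less than the levels given below. Free RNA of marker-negative cells, which held most Adk UMIs, is not in these values and was not calculated. Any part of these markers other than by free RNA was not tested. T-cell marker RNA was present at a low level in macrophage-like cells, at a sum of 22.1 and 4.17 CPM over 8 markers against 4059 and 2210 CPM in T- and NK-like cells. At the Nt5e-to-marker ratio of the T- and NK-like cells, that marker RNA carried 0.515 and 0.0328 CPM of Nt5e, and all sources together 1.27 and 0.315 CPM, less than the 19.7 and 4.94 CPM found.

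Fibroblast-like cells were the exception. They had 6 Nt5e UMIs in 238 untreated cells (2.11 CPM) and 49 UMIs in 677 MSA-2 cells (4.90 CPM), a log2 ratio of 1.21 whose interval (-0.01 to 2.73) included 0. Other classes' marker RNA would carry 1.76 CPM (untreated) and 0.324 CPM (MSA-2), so that the untreated level was near that of free RNA and the MSA-2 level above it. In marker-negative cells the level was 0.761 CPM (111 UMIs) and 0.253 CPM (41 UMIs), a log2 ratio of -1.59. Macrophage and T-cell markers alone carried 0.360 and 0.467 CPM in the untreated library, together more than was found, and all sources 0.240 CPM in the MSA-2 library, so this Nt5e is not read as expression. After thinning to 1000 UMIs, 0.0648% of untreated marker-negative cells had an Nt5e UMI against 9.48% of 1477 T- and NK-like cells (8.03% to 11.1%). In the MSA-2 library these shares were 0.0447% and 1.57% of 255 (0.429% to 3.97%).

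The share of Nt5e held by T- and NK-like cells was 43.2% in the untreated library (40.5% to 45.9%) and 9.27% in the MSA-2 library (6.03% to 13.5%). In the MSA-2 library its 259 UMIs were spread over fibroblast-like (18.9%), marker-negative (15.8%), endothelial-like (15.1%), macrophage-like (12.4%) and neutrophil-like cells (10.8%). The neutrophil-like share came from 28 UMIs in 2642 cells, at 5.11 CPM.

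Among the 6 members, those past a fold of 2 with at least 20 UMIs were counted in each class and are set beside the share of all genes past it. In macrophage-like cells 1 of 6 was lower and 0 higher (all genes 7.43% and 7.96%), in T- and NK-like cells 2 of 5 were lower and 0 higher (9.71% and 4.68%), and in CD8 T-like cells 2 of 4 were lower and 0 higher (12.3% and 6.33%). In NK-like cells 1 of 4 was lower and 1 higher (8.63% and 5.06%), in monocyte-like cells 1 of 5 was lower and 1 higher (13% and 11.7%), and in endothelial-like cells 1 of 4 was lower and 1 higher (7.09% and 6.23%). In marker-negative cells 1 of 6 was lower and 1 higher (6.02% and 11.3%), and in fibroblast-like cells 0 were lower and 3 higher (9.04% and 7.79%). The 3 in fibroblast-like cells were Adora2b, Entpd1, which was near the level of free RNA, and Nt5e, whose interval included 0, so that 1 of the 3 is read as a difference. Nt5e was the lower member in every class named with a lower one, but in marker-negative cells it was at the level of free RNA and is not read as one, and Adora2a was the other in T- and NK-like and in CD8 T-like cells.

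**Figure D3:**
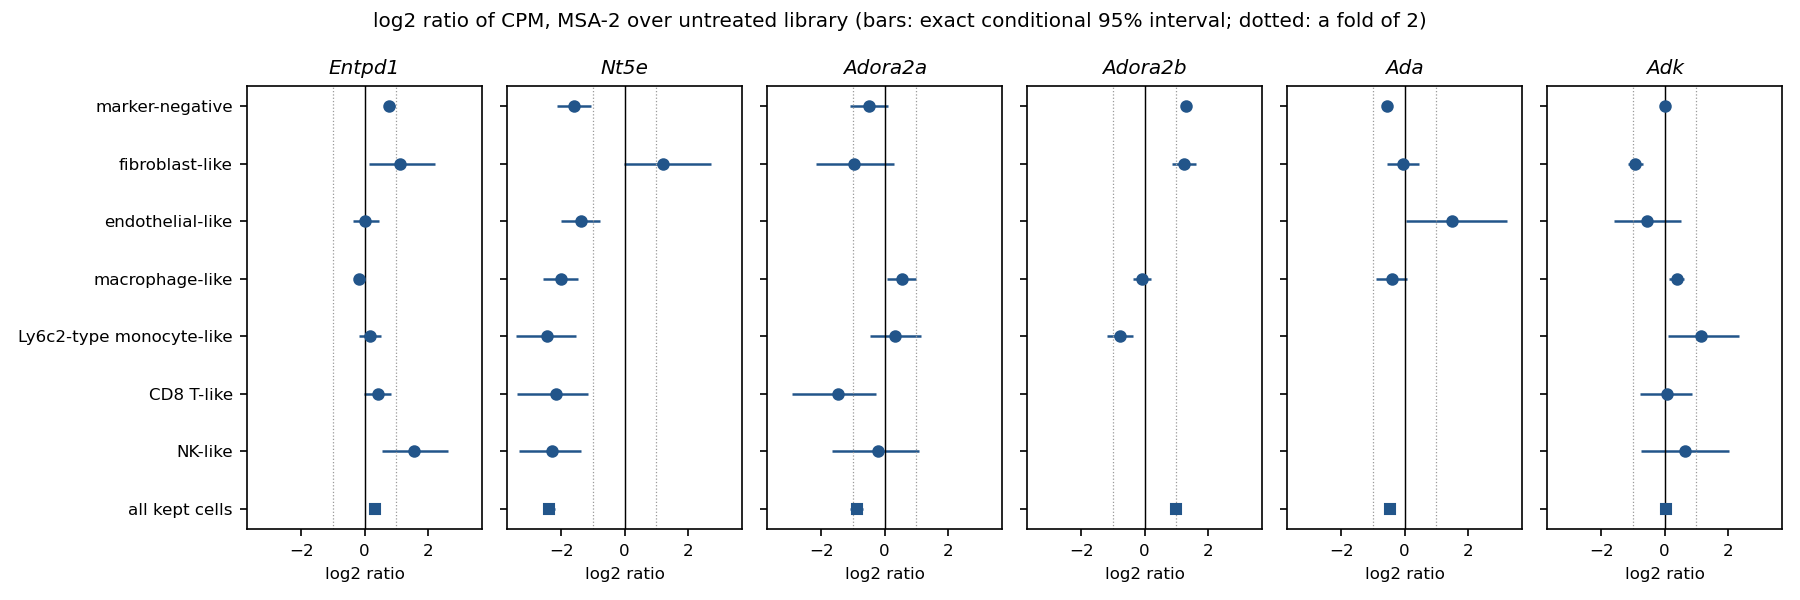
The log2 ratio of each member's level, MSA-2 over untreated (x axis), in 7 cell classes and over all kept cells (y axis), for genes with at least 20 UMIs. Lines are exact conditional 95% intervals and dotted lines a fold of 2. Nt5e lay left of the line for lower by a fold of 2 in all classes drawn but fibroblast-like cells.

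Cells that carried UMIs of both ectoenzymes were found among endothelial-like cells, with 18 of 61 untreated (29.5%, 18.5% to 42.6%) and 15 of 78 MSA-2 cells (19.2%, 11.2% to 29.7%). In the untreated library 11 of 88 Treg-like (12.5%), 39 of 740 CD8 T-like (5.27%) and 164 of 3804 macrophage-like cells (4.31%) held both. In the MSA-2 library 11 of 1316 macrophage-like (0.836%) and 19 of 2642 neutrophil-like cells (0.719%) did. In endothelial-like cells the product of the single shares was 25.6% and 15.6%, near the shares found, and in macrophage-like cells it was 3.92% and 0.877%. Shares of cells with a UMI grow with depth, and endothelial-like cells were the deeper class, at median depths of 7454 and 8969.5 UMIs against 5522 and 4466.5 in macrophage-like and 3044 in untreated Treg-like cells. Thinned to 2000 UMIs, 3.57% of untreated endothelial-like (0.435% to 12.3%) and 5.80% of untreated Treg-like cells (1.60% to 14.2%) held both, with overlapping intervals.

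Adora2a, the high-affinity receptor, was in lymphoid cells, monocyte-like cells and mature dendritic cells. Its highest level among classes of at least 50 cells was in untreated mregDC-like cells (mature dendritic cells, gated on markers such as Ccr7 and Ccl22), at 81.5 CPM (58.7 to 110) from 42 UMIs in 81 cells, and the 14 such cells of the MSA-2 library held 4 UMIs (69.4 CPM, 18.9 to 178). T-like classes of the untreated library lay between 28.5 CPM (CD4 T-like) and 40.8 CPM (other T-like) with overlapping intervals, and NK-like cells at 17.0 CPM. CD8 T-like cells had 97 untreated UMIs (31.9 CPM) and 6 MSA-2 UMIs (11.6 CPM), a log2 ratio of -1.45 (-2.94 to -0.28). All T- and NK-like cells together had 183 and 20 UMIs (31.1 and 14.5 CPM), a log2 ratio of -1.10 (-1.85 to -0.43). NK-like cells, a larger part of these in the MSA-2 library, had 17.0 and 14.7 CPM, a log2 ratio of -0.21 (-1.65 to 1.10).

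Macrophage-like cells had the other direction for Adora2a, with 138 UMIs (6.29 CPM) and 59 UMIs (9.10 CPM), a log2 ratio of 0.53 (0.07 to 0.98). Neutrophil marker RNA, which was higher in these MSA-2 cells as given with Nt5e, carried 0 and 0.0549 CPM of Adora2a. The intervals of monocyte-like cells (19 and 57 UMIs, 23.6 and 29.3 CPM, log2 ratio 0.31, -0.46 to 1.15) and of mregDC-like cells (log2 ratio -0.23, -2.17 to 1.23) included 0. T- and NK-like cells held 36.9% of the Adora2a UMIs of the untreated library and 7.09% of those of the MSA-2 library, macrophage-like cells 27.8% and 20.9%, and monocyte-like cells 3.83% and 20.2%. In marker-negative cells the gene was at 0.398 and 0.284 CPM, beside 0.290 and 0.153 CPM carried by other classes' markers.

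Adora2b, the low-affinity receptor, was in marker-negative, fibroblast-, macrophage- and monocyte-like cells and was at a lower level in lymphoid cells. All T- and NK-like cells had 13 and 3 UMIs (2.21 CPM, 1.18 to 3.78, and 2.18 CPM, 0.449 to 6.36), beside 0.627 and 0.782 CPM carried by other classes' marker RNA. The carried levels leave out free RNA of marker-negative cells, which held 54.0% and 70.6% of the Adora2b UMIs. Its part was not tested, so the Adora2b of T- and NK-like cells is not read as expression. In marker-negative cells it had 817 UMIs in 6176 untreated cells (5.60 CPM) and 2219 UMIs in 6706 MSA-2 cells (13.7 CPM), a log2 ratio of 1.29 (1.17 to 1.41). Marker RNA of other classes carried 0.533 and 0.903 CPM, well under both levels. In fibroblast-like cells it had 66 UMIs (23.3 CPM) and 546 UMIs (54.6 CPM), a log2 ratio of 1.23 (0.86 to 1.62). The 9 markers of fibroblast-like cells themselves (none at 0) summed to 41312 and 25843 CPM there. The 9 monocyte markers (none at 0) summed to 3637 and 5443 CPM. Of the latter, Vcan, Plac8 and Fn1 were left out of the monocyte gate because marker-negative cells also held them. Their sum is therefore not specific to monocytes. The part of both lists in the Adora2b, Ada and Adk values of this class was not tested. After thinning to 1000 UMIs, 0.551% of untreated (0.382% to 0.768%) and 1.52% of MSA-2 marker-negative cells (1.24% to 1.84%) had an Adora2b UMI. In T- and NK-like cells it was 0 of 1477 and 0 of 255, which at this depth allows shares of up to 0.203% and 1.18%. Before thinning, 12 of 1490 (0.805%) and 3 of 259 (1.16%) of these cells had one, against 11.5% and 23.6% of marker-negative cells, at median depths of 3336 and 4490 against 21094.5 and 20824 UMIs.

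The myeloid classes did not share the higher level. Macrophage-like cells had 466 UMIs (21.2 CPM) and 130 UMIs (20.1 CPM), a log2 ratio of -0.08 (-0.37 to 0.20). Among classes of at least 50 cells monocyte-like cells had the highest level in both libraries, 103 CPM (82.1 to 128) from 83 UMIs in 223 untreated cells and 60.2 CPM (49.8 to 72.1) from 117 UMIs in 539 MSA-2 cells, a log2 ratio of -0.78 (-1.19 to -0.35). The interval of monocyte-like MSA-2 cells overlapped that of fibroblast-like ones (50.1 to 59.3 CPM). Among untreated cells the level in fibroblast-like cells (18.0 to 29.6 CPM) overlapped that in macrophage-like cells (19.3 to 23.2 CPM).

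Marker-negative cells were also divided, after the values had been seen, by Nos2, the inducible nitric oxide synthase gene, at 1 UMI per 10000. Nos2-high cells were 376 of 6176 untreated (6.09%) and 3274 of 6706 MSA-2 cells (48.8%), with 562 and 2022 cells within a fold of 2 of the cutoff and medians of 0 and 0.946 UMIs per 10000, so that the subsets of the libraries were unlike sets and are not compared between them. Nos2-high cells were the shallower, at median depths of 15647.5 against 21563 UMIs (untreated) and 18819.5 against 22588.5 UMIs (MSA-2). Among MSA-2 cells Adora2b was 19.2 CPM in Nos2-high and 9.08 CPM in Nos2-low cells, a log2 ratio of 1.08 (0.96 to 1.21). In the untreated library it was 6.28 and 5.57 CPM (log2 ratio 0.17, -0.32 to 0.63). Among MSA-2 fibroblast-like cells Adora2b was 70.9 CPM in Nos2-high and 37.9 CPM in Nos2-low cells (log2 ratio 0.90, 0.64 to 1.16). In the untreated library 11 of 238 fibroblast-like cells were Nos2-high, with 1 Adora2b UMI. Other members differed between these subsets too. In MSA-2 fibroblast-like cells the Nos2-high over Nos2-low log2 ratio was -1.34 for Ada (-1.88 to -0.82), 1.15 for Nt5e (0.24 to 2.13) and 0.83 for Entpd1 (0.13 to 1.57). In MSA-2 marker-negative cells it was -0.40 for Ada (-0.58 to -0.23) and -0.11 for Adk (-0.17 to -0.05). The intervals of the members not named here included 0.

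**Figure D4:**
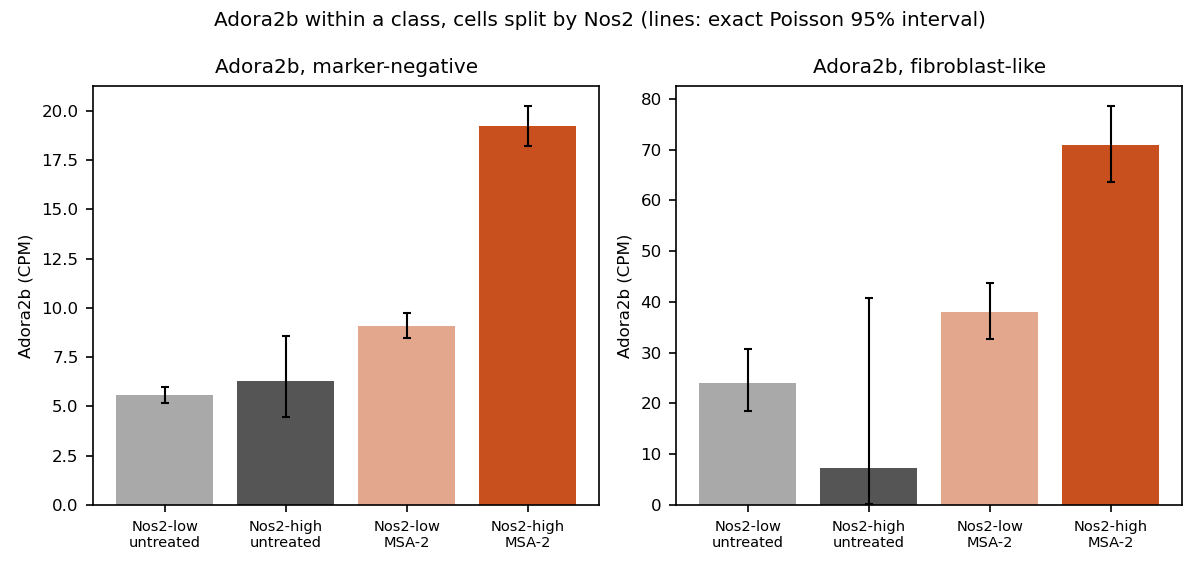
Adora2b levels (y axis, CPM, from 0) in marker-negative and in fibroblast-like cells divided by Nos2, in each library. Bars are summed levels and lines exact Poisson 95% intervals. In the MSA-2 library the level was higher in the Nos2-high cells of both classes, and the Nos2-high untreated fibroblast-like bar rests on 11 cells.

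The enzymes that clear adenosine were mainly in marker-negative cells, which held 82.2% and 81.8% of the Ada UMIs and 86.3% and 89.6% of the Adk UMIs of the untreated and MSA-2 libraries. These cells also held 79.5% and 84.4% of all UMIs. Ada had 1488 UMIs (10.2 CPM) and 1132 UMIs (6.99 CPM) in them, a log2 ratio of -0.55 (-0.66 to -0.43). Fibroblast-like cells were level at 15.9 and 15.3 CPM (log2 ratio -0.05, -0.54 to 0.46), and macrophage-like cells had 9.11 and 6.94 CPM (log2 ratio -0.39, -0.89 to 0.08). Endothelial-like cells had 5 untreated and 23 MSA-2 UMIs (8.38 and 23.4 CPM), a log2 ratio of 1.48 with a wide interval (0.05 to 3.23). Ada was low in T- and NK-like cells, with 33 UMIs in 1490 untreated and 5 in 259 MSA-2 cells (5.61 and 3.63 CPM). Free RNA of marker-negative cells, at 10.2 and 6.99 CPM of Ada, was not calculated for the other classes, and its part was not tested. The macrophage-, T- and NK-like levels and the untreated endothelial-like level are not shown to lie above it.

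Adk was nearly the same in marker-negative cells, with 8060 UMIs (55.3 CPM, 54.1 to 56.5) and 9010 UMIs (55.6 CPM, 54.5 to 56.8), a log2 ratio of 0.01 (-0.03 to 0.05). It was lower in fibroblast-like cells of the MSA-2 library, with 219 UMIs (77.2 CPM) and 406 UMIs (40.6 CPM) and a log2 ratio of -0.93 (-1.17 to -0.68). It was higher there in macrophage-like cells (25.4 and 33.0 CPM, log2 ratio 0.38, 0.14 to 0.61) and in monocyte-like cells (9 and 48 UMIs, 11.2 and 24.7 CPM, log2 ratio 1.14, 0.10 to 2.36). Free RNA of marker-negative cells, at 55.3 and 55.6 CPM of Adk, was not calculated for these classes. Its part in their values was not tested, and the untreated monocyte-like level is not shown to lie above it. The monocyte-like value was under a fold of 2 with equal weight per cell (0.82) and with a gate at 1.5 times the marker share (0.74). The highest Adk level of the untreated library was in mast-like cells, at 422 CPM (21 UMIs in 15 cells) and 238 CPM (14 UMIs in 14 cells), with no overlap with the intervals of marker-negative cells. Untreated CD4 T-like cells followed at 105 CPM (72.0 to 147).

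The other genes of the pathway were a list of 51. It held ectonucleotidases, transporters, intracellular purine enzymes, P2rx and P2ry receptors for ATP and other nucleotides, and Adora1, Adora3, Dpp4, Panx1 and Gja1. Over all kept cells 45 of the 51 had at least 20 UMIs. Of these 9 were higher and 6 lower by a fold of 2 in the MSA-2 library (all genes 11.2% and 8.36%), and the median log2 ratio was 0.08 against 0.01 over all genes. With equal weight per cell 2 were lower (all genes 10.6%). In macrophage-like cells 9 of 38 were higher and 3 lower (all genes 7.96% and 7.43%), and the median was -0.05 against -0.13. The higher genes there included the NAD-consuming ectoenzymes Cd38 (39.8 and 169 CPM, log2 ratio 2.09) and Bst1 (19.1 and 103 CPM, log2 ratio 2.43). They also included Slc28a2, a concentrative nucleoside transporter (13.2 and 60.9 CPM, log2 ratio 2.21), and Nt5c3, a cytosolic nucleotidase (36.8 and 124 CPM, log2 ratio 1.75). The monocyte and neutrophil marker sums given with Nt5e were also higher in these MSA-2 cells, no level carried by free RNA was calculated for the genes of this list, and the part of either in their values was not tested. In monocyte-like cells 10 of 24 were higher and 2 lower (all genes 11.7% and 13%), with a median of 0.00 against -0.25, and Cd38 had 5 and 332 UMIs (6.21 and 171 CPM, log2 ratio 4.78).

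In marker-negative cells 8 of 43 genes of the list were higher and 3 lower (all genes 11.3% and 6.02%), with a median of 0.09 against 0.03. Ampd3, an AMP deaminase, had 230 and 1826 UMIs (1.58 and 11.3 CPM, log2 ratio 2.84), and Enpp2, the ectoenzyme autotaxin, had 7200 and 2433 UMIs (log2 ratio -1.72). Fibroblast-like cells, with 11 of 37 higher and 3 lower (all genes 7.79% and 9.04%) and a median of -0.10 against -0.17, had Ampd3 at a log2 ratio of 2.17, Alpl, the tissue-nonspecific alkaline phosphatase, at 3.29 from 2 and 69 UMIs, and Enpp2 at -2.48. The sum of the 12 neutrophil markers also differed there, at 62.0 and 584 CPM (3 at 0 in the untreated library), beside that of the monocyte markers given with Adora2b. The neutrophil markers summed to 31.2 and 499.7 CPM in marker-negative cells (none at 0), and the part of these and of the sums given for T- and NK-like cells with Nt5e in the list's values was not tested. T- and NK-like cells had 4 of 29 higher and 3 lower (all genes 4.68% and 9.71%) with a median of -0.18 against -0.15. Among these Xdh, which makes uric acid, had a log2 ratio of 1.52 and P2rx7, an ATP-gated channel, of -1.77 from 58 and 4 UMIs. Endothelial-like cells had 3 of 17 higher and 0 lower (all genes 6.23% and 7.09%), with a median of -0.22 against -0.13, and NK-like cells 1 of 13 each way (5.06% and 8.63%), with -0.20 against -0.11.

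Genes known to respond to cAMP, which these receptors raise, and to other signals were also listed. Neither cAMP nor receptor activity was measured, so the levels of these genes are not read as activity of the receptors. Over all kept cells 0 of 16 were higher and 4 lower by a fold of 2 (all genes 11.2% and 8.36%), with a median log2 ratio of -0.42 against 0.01 over all genes. The lower ones were Nr4a3 (-1.96), Rgs2 (-1.68), Nr4a2 (-1.51) and Pde3b (-1.06). In T- and NK-like cells 1 of 16 was higher and 7 lower (all genes 4.68% and 9.71%), with a median of -0.96 against -0.15. Sik1, a salt-inducible kinase, had 1040 and 32 UMIs there (177 and 23.2 CPM, log2 ratio -2.93), and Nr4a1, a nuclear receptor induced by antigen-receptor and cAMP signals, 203 and 60.2 CPM (log2 ratio -1.75). In macrophage-like cells 2 of 16 were higher and 5 lower (all genes 7.96% and 7.43%), with a median of -0.51 against -0.13. Areg, the growth factor amphiregulin, was among the higher (22.6 and 83.5 CPM, log2 ratio 1.89), as it was in monocyte-like cells (24.8 and 173 CPM, log2 ratio 2.80). The neutrophil and monocyte marker sums given above for macrophage-like cells, and the neutrophil and macrophage sums for monocyte-, T- and NK-like cells (860 and 228 CPM of macrophage markers in NK-like cells, none at 0), also differed between the libraries, and their part in the values of this list was not tested. In marker-negative cells, where Adora2b was higher, 0 of 16 were higher and 3 lower (all genes 11.3% and 6.02%), with a median of -0.16 against 0.03. The macrophage markers used in the gate summed to 330 and 104 CPM in marker-negative cells. The part of these, and of the other marker sums given above for marker-negative and fibroblast-like cells, in this list's values was not tested. Fibroblast-like cells, where Adora2b was also higher, had 0 of 16 higher and 3 lower (7.79% and 9.04%) and a median of -0.13, above the -0.17 of all genes. Endothelial-like cells had 1 of 15 higher and 2 lower (6.23% and 7.09%) and a median of 0.02, also above that of all genes (-0.13). The median was below that of all genes in monocyte-like cells (-0.65 against -0.25; 3 of 15 higher and 3 lower, all genes 11.7% and 13%) and in NK-like cells (-1.05 against -0.11; 0 of 14 higher and 8 lower, all genes 5.06% and 8.63%).

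Over 22 points, each a class in a library, the Pearson correlation of log2(CPM + 10) between members lay from -0.50 (Adora2a and Ada) to 0.37 (Nt5e and Adora2a). It was -0.42 between Entpd1 and Adk, 0.12 between Entpd1 and Nt5e, -0.13 between Adora2a and Adora2b and 0.25 between Ada and Adk. These are descriptions, since points of a library share its free RNA and depth. The genes most like Nt5e were Tex2 (0.90), Vgll4 (0.85) and Cdk17 (0.85), and those most like Adora2b were Mmp19 (0.91), Pla2g4a (0.88) and Lrp1 (0.86). Zranb1 (0.89), Rps6ka5 (0.88) and Gramd1b (0.87) were most like Adora2a, and Anks1 (0.79), Erbin (0.78) and D1Ertd622e (0.77) most like Entpd1. For Ada they were Adarb1 (0.82), Lman1 (0.82) and Fbln5 (0.80), and for Adk Ube4b (0.80), Dusp10 (0.78) and Chd3 (0.75).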

How the data were processed

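Single-cell 3′ RNA-seq (10x Chromium) was measured in 1 untreated and 1 MSA-2 library. The values the authors deposited are unnormalized whole-number counts of UMIs for every gene in each barcode that had passed their own filter. The submitters' processing notes name Cell Ranger 7.0.0, Seurat 4.3.0 and mm10, which is GRCm38, while the methods and the file headers name other Cell Ranger versions, and whether intronic reads were counted is not given in the sources used here. Here a barcode needed 500 genes or more and no more than 20% of its UMIs from mitochondrial genes, and doublets called by Scrublet (scanpy 1.11.5; 5.02% and 4.08% of cells) were removed. Cells were gated by UMIs of marker lists per 10000 UMIs (5 to 100 by class) and 2 or 3 different markers. Markers that marker-negative cells also held (19 genes) were left out of the gates after the data were seen.

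UMIs were summed per class and library. Intervals were exact (Poisson for levels, conditional binomial for ratios, Clopper-Pearson for shares, 95%), a count of 0 was given 3 counts as its upper limit, and medians of log2 ratios used 1 CPM added. No test was made, since cells are not replicates. The fold of 2 was read in genes with at least 20 UMIs over both libraries. Of the pathway and cAMP lists, genes past it with at least 50 UMIs were named by a rule that took at most 4 per class and list by size of the log2 ratio, and the text gives part of these. Likeness was ranked among genes with at least 50 CPM in a class. The study's own comparison, over cells, was not repeated. The members, lists and markers were chosen with earlier results of these data known. Computations used Python 3.11.15, scipy 1.17.1 and edgeR 4.0.16 (TMM factors as an alternative), and ratios and thinning were tested on simulated data. Other filters, gates, scalings and thresholds were tried.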

Additional observations from a re-analysis of the deposited data

Results flagged for a closer look

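In 5 members the MSA-2 over untreated log2 ratio pointed one way in 1 class and the other way in another, with intervals that left out 0 on both sides and a fold of 2 on at least one. The difference between classes was not tested, since each class had 1 library per condition. Entpd1 had 1.56 in NK-like against -0.18 in macrophage-like cells. Adora2a had 0.53 in macrophage-like against -1.45 in CD8 T-like cells. Adora2b had 1.29 in marker-negative against -0.78 in Ly6c2-type monocyte-like cells. Ada had 1.48 in endothelial-like cells, from 5 and 23 UMIs, against -0.55 in marker-negative cells. Adk had 1.14 in monocyte-like cells, from 9 and 48 UMIs, against -0.93 in fibroblast-like cells, and the former was under a fold of 2 with equal weight per cell (0.82) and with a gate at 1.5 times the marker share (0.74). The part of free RNA of marker-negative cells in the endothelial-like Ada and monocyte-like Adk values was not tested.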

How the results depend on the processing

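No paired analysis was possible because each condition had 1 library, and leaving out a replicate was not possible for the same reason. The number of cells limited the small MSA-2 classes most, which held 1 cDC2-like, 4 cDC1-like, 8 Treg-like and 12 CD4 T-like cells.

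Over all kept cells Entpd1 depended on the neutrophil-like cells. Its log2 ratio was 0.32, but -0.60 with a filter of 1000 genes and 10% mitochondrial UMIs, which kept 311 of 2642 neutrophil-like MSA-2 cells, and -0.89 without neutrophil-like cells, an alternative chosen after seeing the data. With equal weight per cell it was 1.41, and Nt5e was -2.59, Adora2a -0.56 and Adora2b 0.46. Without neutrophil-like cells the other members stayed within their intervals, and Adora2b (8.25 and 16.6 CPM) passed a fold of 2.

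Summed over 6 classes, 6 of 32 member values were higher and 6 lower by a fold of 2 (all genes 8.52% and 8.31%), and these include Entpd1 and Nt5e in fibroblast-like and Nt5e in marker-negative cells, which are not read as differences. With at least 100 UMIs 2 of 23 were higher (6.46%) and 5 lower (5.33%), and with a fold of 1.5, 7 of 32 were higher (15.8%) and 10 lower (20.1%). In the pathway list over all kept cells, 6 genes were lower (8.36%), and 2 with equal weight per cell (10.6%). Of 16 class values past a fold of 2, all held with other filters, with doublets kept, with 1 more marker and with edgeR TMM factors. With equal weight per cell Nt5e in fibroblast-like cells (0.88) and Adk in monocyte-like cells (0.82) did not, and with a gate at 1.5 times the marker share, also chosen after seeing the data, Adk in monocyte-like cells (0.74) did not. Newly past it were Adora2a in fibroblast-like cells with equal weight (-1.24) and with that gate (-1.31), and Adora2b in monocyte-like cells with that gate (-1.06). TMM factors added 0.24 to log2 ratios in fibroblast-like, 0.17 in endothelial-like and 0.30 in monocyte-like cells.

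Shares of cells with a UMI moved with depth. For Nt5e in T- and NK-like cells, 9.48% of untreated cells thinned to 1000 UMIs became 14.7% at 2000 and 22.7% unthinned, and 1.57% of MSA-2 cells became 7.34% unthinned. Entpd1 in macrophage-like cells went from 14.2% to 26.1% and 49.3% in the untreated and from 13.5% to 23.2% and 38.4% in the MSA-2 library. Adora2b in marker-negative cells went from 0.551% to 1.02% and 11.5% and from 1.52% to 2.94% and 23.6%. Cells with both ectoenzymes, at 2000 UMIs, were 3.57% and 1.37% of endothelial-like and 0.738% and 0.171% of macrophage-like cells in the untreated and MSA-2 libraries. Untreated Treg-like cells with both went from 12.5% to 5.80%. With the stricter filter, macrophage-like cells held 27.8% of the Entpd1 UMIs of the MSA-2 library and neutrophil-like cells 0.0213% and 21.6% of those of the untreated and MSA-2 libraries, and this and the Treg-like value were added after seeing the data. With doublets kept, macrophage-like cells held 70.5% of the untreated Entpd1 UMIs and neutrophil-like cells 56.1% of those of the MSA-2 library.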
